A study of Mus musculus with 6 samples.

Results

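Genes of sterol and fatty acid synthesis were examined in macrophages grown from mouse marrow, vimentin-deficient or from wild-type littermates, on 6 arrays with 3 biological replicates per genotype. The set held 34 genes chosen by name for their known roles, covering the mevalonate pathway, the conversion of squalene to cholesterol, fatty acid synthesis and desaturation, and the factors that control them. Earlier results of these data were known when the set was chosen, so the shares of the set given below are descriptions. Each gene was represented by the probe set that the platform annotation assigns to it alone and that had the highest mean over the 6 arrays. Such a probe set was found for 33 of the 34 genes, out of 18193 genes with a probe set of their own in the deposited table. Acat2 is not analysed here. All 33 also passed the filter on low values, a mean of at least 6.93 on the log2 scale, which 13445 genes passed. Their means over the 6 arrays ran from 7.76 for Hsd17b7 to 12.02 for Scd2, above the filter value in each genotype.

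Both groups were 17 weeks of age, of C57BL/6 background, and labelled alike apart from the genotype, vimentin-deficient or wild-type; how the allele was made is not stated. Marrow from the femur was cultured at normal oxygen, and supernatant of CMG14-12 cells supplied the macrophage growth factor M-CSF to both. The series design concerns vimentin in atherosclerosis in marrow-transplanted mice, whereas these arrays held cultured cells. The labels call the samples biological replicates without saying that each was a separate mouse. The p-values therefore set the group difference against the spread between these samples, which may not be that between mice.

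Macrophages make cholesterol from acetyl-CoA through mevalonate, farnesyl diphosphate and squalene, and make fatty acids from malonyl-CoA. Both routes are controlled by the SREBP transcription factors. When the endoplasmic reticulum holds little sterol, the escort protein SCAP carries SREBP to the Golgi, where it is cut and released to the nucleus. INSIG proteins hold SCAP and SREBP back when sterol is plentiful, and INSIG1 is itself a target of SREBP.

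The targeted gene followed the labels. Vim read 13.41, 13.24 and 13.31 on wild-type replicates 1, 2 and 3, and 8.20, 6.96 and 7.13 on vimentin-deficient replicates 1, 2 and 3, which limma put at -5.89 on the log2 scale (SE 0.31, adjusted p = 0.00414). Vimentin-deficient replicate 3 stood apart: its correlations with other arrays, over probe sets, were 0.975 to 0.979, and those among the remaining 5 were 0.992 to 0.998. Its median, 7.244, lay within the 7.225 to 7.249 of the other arrays. The 3′ minus 5′ difference of the control probe sets was 0.013 for Gapdh and 0.23 for beta-actin on this array, against -0.017 to 0.008 and 0.179 to 0.206 on the others. Macrophage markers were bright on every array, with a mean over 8 of 8 genes of 11.91 to 12.07 in wild-type macrophages and 11.97, 12.01 and 12.36 on vimentin-deficient replicates 1, 2 and 3. Among them Fcgr1 differed from the wild-type mean by 1.76, Cd14 by 1.07 and Itgam by -0.75 log2 units on replicate 3, and Cd14 also rose without that array (0.59, SE 0.08, limma adjusted p = 0.00201). Their part in the values below was not tested. Of 35 markers of 9 other cell types on the array, 20 reached the filter value. The means of these lists lay between 6.47 and 7.66 on wild-type arrays and between 6.38 and 7.64 on vimentin-deficient arrays. On vimentin-deficient replicate 3 the osteoclast list differed from its wild-type mean by 0.415 and the mast cell list by -0.369. The other lists differed by -0.147 to -0.025. Single markers lay outside the wild-type range on vimentin-deficient replicate 3, with the protease gene Ctsk at 9.01 against a highest wild-type value of 7.72 and Kit at 7.20 against a lowest wild-type value of 8.52.

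Sterol and fatty acid synthesis genes were low on vimentin-deficient replicate 3 and close to wild-type on the other 2 vimentin-deficient arrays. The median of the 33 genes differed from the wild-type mean by -1.45 log2 units on replicate 3, by 0.03 on replicate 1 and -0.12 on replicate 2. Over all 13445 tested genes the same medians were -0.04, -0.02 and -0.01. On replicate 3, 20 of the 33 genes were over 1 log2 unit below the wild-type mean and 0 over 1 unit above it, where 1.33% of tested genes were that far below and 1.12% that far above. A drop of over 2 log2 units was seen for 32 genes on the array, 0.238% of those tested, and 11 of these 32 belonged to the set. Vimentin-deficient replicates 1 and 2 had 0 members over 1 log2 unit below the wild-type mean, against 0.0744% and 0.0446% of tested genes. These are values of single arrays and carry no test.

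**Figure D1:**
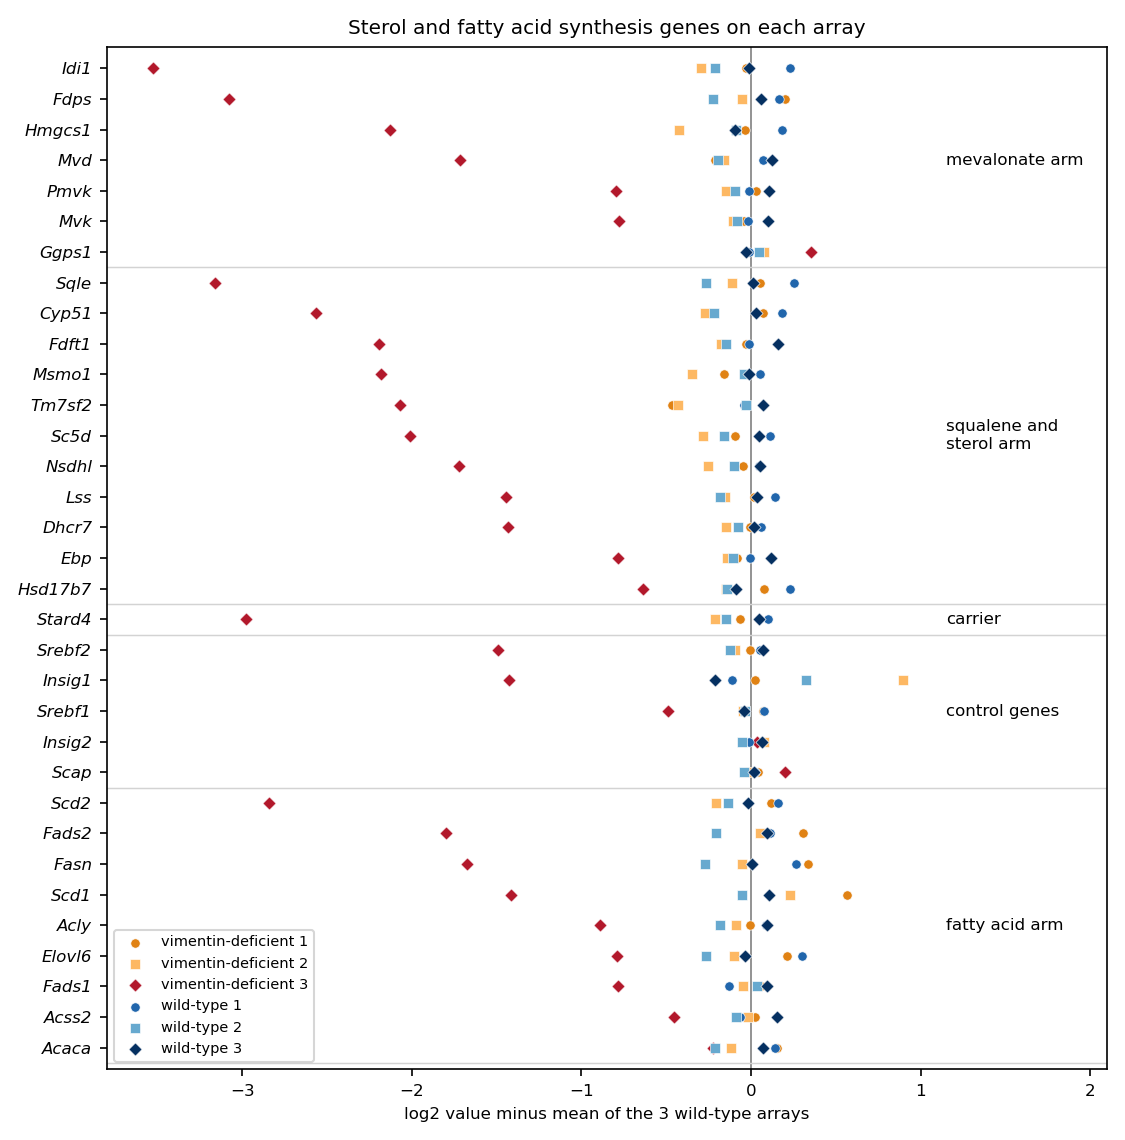
Each row is a gene, grouped by role, and each point is 1 array, placed at its log2 value minus the mean of the 3 wild-type arrays. Vimentin-deficient replicate 3 (red diamonds) lies below all other arrays for 30 of 33 genes (35.9% of all tested genes do so), while the other 5 arrays stay within 1 log2 unit of the wild-type mean for all 33.

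The mevalonate arm, which builds isoprenoid units, had its largest drops in the steps that make and join those units. Idi1, the isomerase that makes dimethylallyl diphosphate, read 10.15, 9.71 and 9.90 on wild-type replicates 1, 2 and 3 and 9.89, 9.62 and 6.39 on vimentin-deficient replicates 1, 2 and 3. Replicate 1 was within the wild-type range, replicate 2 just under it, and replicate 3 was far below both. At 6.39 Idi1 was under the filter value there, as no other member was on any array, so its fall is given as a bound: it was at least 7.92-fold, with the filter value in place of the reading. Fdps, which makes farnesyl diphosphate, read 11.41, 11.02 and 11.30 in wild-type and 11.45, 11.19 and 8.16 in vimentin-deficient macrophages. Its replicates 1 and 2 were within or just above the wild-type range and replicate 3 was 8.47-fold below the wild-type mean, at rank 6 among all tested genes by the readings on that array.

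Hmgcs1, which makes hydroxymethylglutaryl-CoA and so feeds the pathway, read 11.47, 11.20 and 11.19 on wild-type arrays and 11.25, 10.86 and 9.16 on vimentin-deficient arrays. Replicate 2 was already below all wild-type arrays, and replicate 3 was 4.37-fold below their mean. Mvd, the decarboxylase that makes isopentenyl diphosphate, read 9.19, 8.93 and 9.25 against 8.91, 8.96 and 7.40, with replicate 1 just under the wild-type range and replicate 3 far under it. The kinases between them were closer to wild-type: on replicate 3 Mvk was 1.72-fold and Pmvk 1.74-fold below the wild-type mean. Ggps1 went the other way. This gene, whose enzyme makes geranylgeranyl diphosphate and so takes farnesyl diphosphate off the sterol route, read 8.06, 8.12 and 8.04 in wild-type and 8.14, 8.15 and 8.43 in vimentin-deficient macrophages. All 3 vimentin-deficient values lay above all 3 wild-type values, by little on replicates 1 and 2. On replicate 3 all 4 of its probe sets read above the wild-type mean, by 0.31 to 0.44, though the dimmest of them put replicate 1 at -0.01.

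The promoters of the members were searched for short sequences linked to SREBP. The members were chosen by name for their roles, so their shares against tested genes describe the set and do not address replicate 3. RefSeq promoter windows (GRCm38.p6, 250 bases before to 50 after the transcript start) were found for 26 of the 33 genes, and a gene with several starts was counted once if any of its windows held the letters. Of the 26 genes, 22 (84.6%) held CCAAT, the box bound by NF-Y, a partner of SREBP, on either strand, against 42.2% of 10833 tested genes with a window. GGGCGG, the GC box bound by Sp1, was held by 21 (80.8%, against 63.9%), CACGTG, an E-box, by 5 (19.2%, against 11.2%), and TCACNCCAC, the core of the classical sterol regulatory element, by 1 (3.85%, against 1.48%). CCAAT was held by 13 of the 14 genes with windows that were over 1 log2 unit lower on replicate 3 and by 9 of the other 12. No window was found for Sqle, Fdft1, Fdps, Stard4, Fads1, Scd1 and Scd2. All of these but Fads1 were over 1 log2 unit lower on replicate 3, so the comparison leaves out several of the largest falls. A match is a string of letters, not a bound site, and SREBP also binds variants that this string does not cover.

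The 250 bases before the transcript start of 4 genes follow, 5′ to 3′ on the gene's strand, with CCAAT (or its reverse complement ATTGG) and TCACNCCAC in capitals. They show the only match to the element core among the 26 genes (Hmgcs1), the gene with the lowest reading on replicate 3 (Idi1), the gene that was lower on every vimentin-deficient array and passed the test without replicate 3 (Tm7sf2), and a gene that read higher on that array (Ggps1). Hmgcs1 lies at chr13:119690101-119690350 on the plus strand, Idi1 at chr13:8885356-8885605 on the plus strand, Tm7sf2 at chr19:6067851-6068100 on the minus strand and Ggps1 at chr13:14063489-14063738 on the minus strand.
Hmgcs1: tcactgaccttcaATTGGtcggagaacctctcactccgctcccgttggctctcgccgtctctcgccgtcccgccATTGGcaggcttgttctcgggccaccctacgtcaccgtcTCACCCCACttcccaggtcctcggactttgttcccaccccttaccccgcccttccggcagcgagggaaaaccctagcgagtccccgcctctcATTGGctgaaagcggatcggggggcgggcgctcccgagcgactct
Idi1: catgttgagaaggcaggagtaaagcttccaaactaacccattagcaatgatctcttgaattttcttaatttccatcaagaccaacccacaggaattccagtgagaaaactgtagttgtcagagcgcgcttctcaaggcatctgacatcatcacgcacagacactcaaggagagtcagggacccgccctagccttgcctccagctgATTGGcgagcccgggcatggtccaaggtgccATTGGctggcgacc
Tm7sf2: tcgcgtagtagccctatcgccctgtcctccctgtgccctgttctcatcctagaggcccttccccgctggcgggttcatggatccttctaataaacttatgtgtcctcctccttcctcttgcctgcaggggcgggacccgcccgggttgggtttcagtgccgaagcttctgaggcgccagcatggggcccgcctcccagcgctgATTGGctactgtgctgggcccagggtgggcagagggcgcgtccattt
Ggps1: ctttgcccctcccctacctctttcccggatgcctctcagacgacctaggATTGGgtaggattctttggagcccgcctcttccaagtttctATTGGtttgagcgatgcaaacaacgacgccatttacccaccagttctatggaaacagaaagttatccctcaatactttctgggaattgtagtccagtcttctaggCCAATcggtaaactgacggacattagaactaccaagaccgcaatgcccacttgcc
All 4 stretches hold the CCAAT letters near their 3′ end, including that of Ggps1, which was not low on replicate 3.

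The squalene and sterol arm, which turns farnesyl diphosphate into cholesterol, was low on replicate 3, with a median of -2.01 log2 units. Replicate 3 read below all other arrays for 11 of 11 genes, against 35.9% of tested genes. Sqle, squalene epoxidase and a slow step of the route, read 10.81, 10.29 and 10.56 in wild-type and 10.61, 10.44 and 7.39 in vimentin-deficient macrophages. Replicates 1 and 2 sat inside the wild-type range and replicate 3 was 8.94-fold below the wild-type mean, at rank 3 among all tested genes. Cyp51, the lanosterol demethylase, read 10.10, 9.70 and 9.94 against 9.98, 9.64 and 7.35. Only replicate 3 left the wild-type range by more than 0.1 log2 units, with a 5.92-fold fall. Fdft1, squalene synthase, was 4.58-fold, Sc5d, a sterol desaturase, 4.03-fold, Nsdhl, a sterol dehydrogenase, 3.31-fold, Lss, lanosterol synthase, 2.73-fold, and Dhcr7, the last reductase, 2.70-fold below the wild-type mean on that array. The isomerase gene Ebp was 1.72-fold and Hsd17b7, the keto-reductase of demethylation, 1.56-fold below it, though the 2 other probe sets of Hsd17b7 above the filter, nearly as bright, differed by -1.22 and -0.90 log2 units against -0.64 for the one used.

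A pair of genes in this arm was below every wild-type array on all 3 vimentin-deficient arrays. Tm7sf2, a sterol reductase that acts just after the lanosterol demethylase, read 9.05, 9.06 and 9.16 in wild-type and 8.63, 8.66 and 7.03 in vimentin-deficient macrophages. Vimentin-deficient replicates 1 and 2 were alike, 0.47 and 0.43 log2 units below the wild-type mean, and replicate 3 was 4.19-fold below it. The reading on replicate 3 was just above the filter value of 6.93, so that fold may be compressed by background. Msmo1, the methylsterol oxidase of the next step, read 11.72, 11.62 and 11.65 against 11.51, 11.32 and 9.48. Its replicates 1 and 2 lay only 0.16 and 0.35 log2 units under the wild-type mean. Absence of overlap in this direction was seen for 10.1% of all tested genes, so 2 of 33 members (6.06%) is no more than the background. In the other direction Ggps1 was the only member without overlap, where 5.32% of tested genes were.

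**Figure D2:**
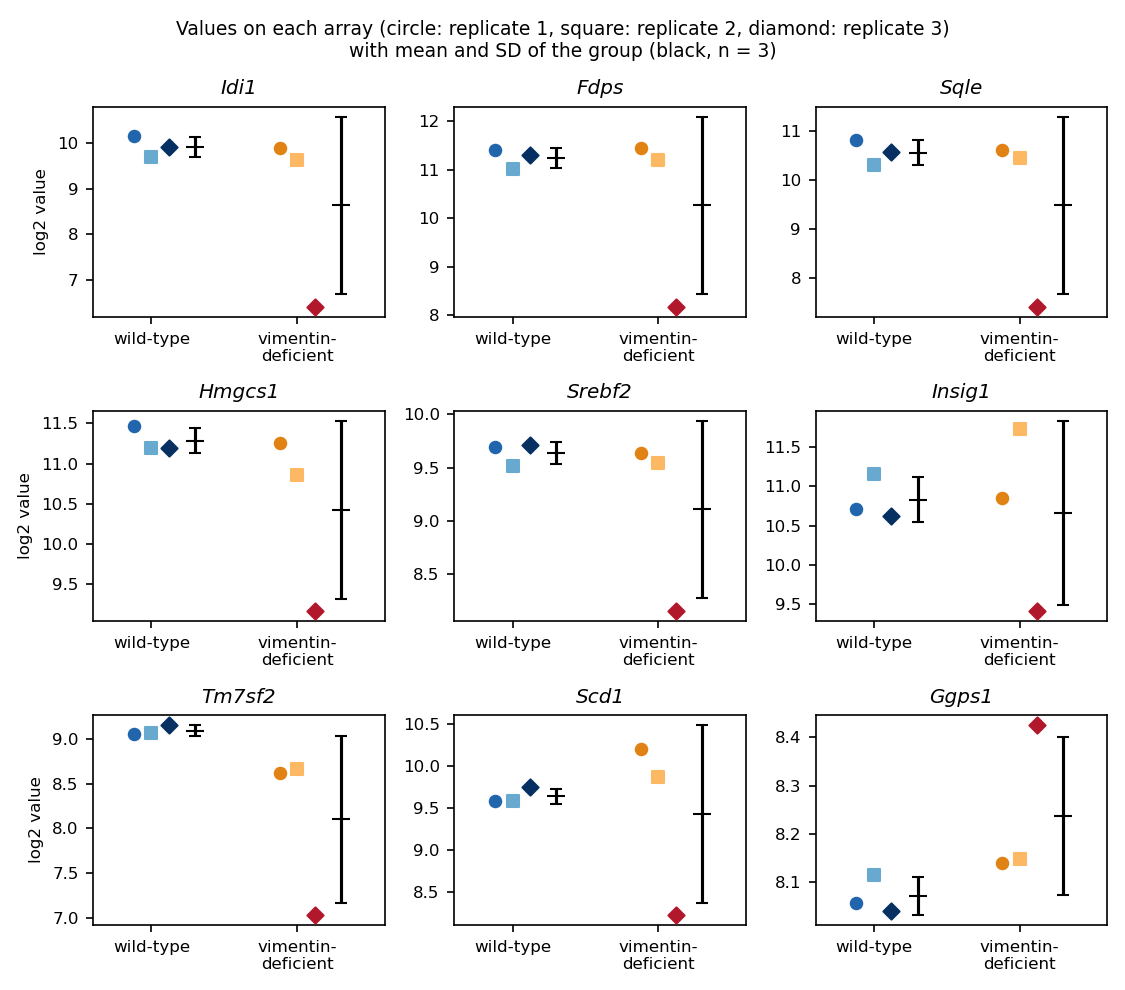
The log2 value on each array is shown for 9 genes, wild-type on the left and vimentin-deficient on the right of each panel, with the group mean and SD (n = 3) in black; vertical scales differ between panels and do not start at 0. Idi1, Fdps, Sqle, Hmgcs1 and Srebf2 are low only on vimentin-deficient replicate 3 or markedly lower there than elsewhere, Tm7sf2 is below wild-type on all 3, and Ggps1 is above.

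Stard4, which carries cholesterol between membranes inside the cell, was low on the same array as the enzymes. It read 10.44, 10.19 and 10.38 in wild-type and 10.27, 10.12 and 7.36 in vimentin-deficient macrophages, with replicate 3 at 7.87-fold below the wild-type mean and rank 8. Its 3 probe sets differed from the wild-type mean there by -2.98, -2.44 and -1.997.

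Of the 5 control genes, Srebf2, Srebf1 and Insig1 were low on replicate 3, and Insig2 and Scap were not. Srebf2, the factor that drives sterol genes, read 9.69, 9.52 and 9.71 in wild-type and 9.63, 9.55 and 8.15 in vimentin-deficient macrophages. Replicate 3 alone was outside the wild-type range, 2.82-fold below the mean, and its other probe set differed there by -1.18 log2 units. Srebf1, the factor that drives fatty acid genes, was 1.40-fold lower on that array, at 9.36 against 9.80 to 9.92 in wild-type. Insig1 read 10.72, 11.16 and 10.62 in wild-type and 10.86, 11.73 and 9.41 in vimentin-deficient macrophages. Replicate 2 was the highest array and replicate 3 the lowest, 2.69-fold below the wild-type mean. Insig1 thus ran against the enzymes on 2 arrays, since wild-type replicate 2 and vimentin-deficient replicate 2 were low for most of them. Insig2, whose protein has the same role, read 8.99, 8.95 and 9.06 against 9.06, 9.08 and 9.04, with replicate 3 inside the wild-type range. Scap read 9.66, 9.60 and 9.66 in wild-type and 9.68, 9.63 and 9.84 in vimentin-deficient macrophages, with replicate 3 the highest. No probe set of Insig2 was lower than its wild-type mean on replicate 3.

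In the fatty acid arm replicate 3 read below all other arrays for 9 of 9 genes, against 35.9% of tested genes. The falls were smaller than in the sterol arm for most, with a median of -0.89 log2 units. Scd2, a stearoyl-CoA desaturase and the brightest member, read 12.66, 12.37 and 12.48 in wild-type and 12.62, 12.30 and 9.66 in vimentin-deficient macrophages. Replicate 1 was in the wild-type range and replicate 2 just below it, and replicate 3 was 7.17-fold below the mean, at rank 10. Its neighbour on chromosome 19, the paralog Scd1, behaved differently on the other 2 arrays. Scd1 read 9.58, 9.58 and 9.74 in wild-type and 10.20, 9.86 and 8.22 in vimentin-deficient macrophages, so replicates 1 and 2 were above all wild-type arrays and replicate 3 was 2.67-fold below the mean. The other Scd1 probe set gave 0.60, 0.17 and -0.93 for the same differences from the wild-type mean. Vimentin-deficient replicates 1 and 2 were above all wild-type arrays for 3 of 33 members (9.09%), against 11.9% of tested genes.

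Fads2, the delta-6 desaturase of polyunsaturated fatty acids, read 9.37, 9.05 and 9.35 in wild-type and 9.57, 9.31 and 7.46 in vimentin-deficient macrophages, and Fads1 beside it on the chromosome, the delta-5 desaturase, read 10.50, 10.66 and 10.72 against 10.69, 10.59 and 9.84. Fasn, fatty acid synthase, read 10.24, 9.70 and 9.98 against 10.31, 9.92 and 8.30. For each of the 3 only replicate 3 lay below the wild-type range. Acly and Acss2, which supply acetyl-CoA from citrate and acetate, were 1.85-fold and 1.37-fold below the wild-type mean on that array, and the elongase gene Elovl6 1.73-fold. Acaca, acetyl-CoA carboxylase and the committed step of fatty acid synthesis, read 8.53, 8.18 and 8.46 in wild-type and 8.55, 8.27 and 8.16 in vimentin-deficient macrophages. It had the smallest fall of the arm, and replicate 3 was almost level with wild-type replicate 2.

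**Figure D3:**
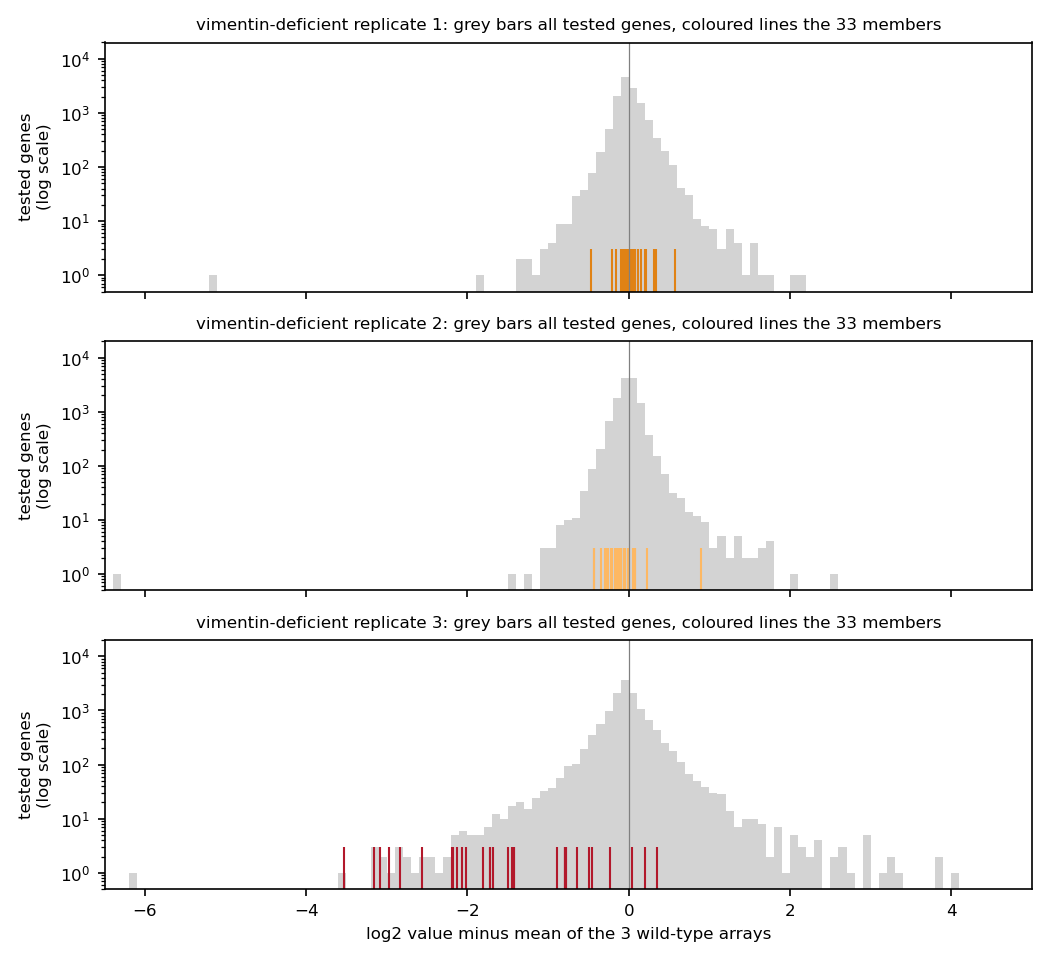
Grey bars count all 13445 tested genes, on a log axis, by their log2 value on 1 vimentin-deficient array minus the wild-type mean, and coloured lines mark the 33 members on that array. Members lie within 1 log2 unit of the wild-type mean on replicates 1 and 2, and 11 of them are among the 32 genes over 2 log2 units lower on replicate 3.

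Where a gene had several probe sets, they mostly had the same direction on replicate 3. Of the 33 genes, 20 had more than 1 probe set above the filter value, and in 19 of these all probe sets had the same sign on replicate 3. The exception was Fads1, whose dim probe set read 0.37 above the wild-type mean. Sizes varied more: Fdft1 gave -2.28 and -2.20 from its bright probe sets and -0.16 and -0.05 from a pair close to the filter value. Sc5d gave -2.01, -1.37 and -0.65, Lss gave -1.45, -1.10 and -0.16, Fads2 -2.12, -1.80 and -0.34, and Acly between -0.89 and -0.04. Hmgcs1 had 4 probe sets between -2.15 and -1.99, and Scd2 had 3 between -2.87 and -2.65. Averaging the probe sets of each gene moved the median of the members on replicate 3 from -1.45 to -1.34.

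Tested over all 6 arrays, no member passed the threshold for a difference between the genotypes. By limma with Benjamini-Hochberg adjustment over 13445 genes, 0 of 33 members fell and 0 rose, where 0.0223% of tested genes fell and 0% rose. Without adjustment, 0 members had a limma p under 0.05, against 4.96% of tested genes lower and 3.01% higher. Means were lower in vimentin-deficient macrophages for 30 of 33 members (90.9%), against 60.4% of tested genes, and higher for 3, against 39.6%. The median log2 fold change was -0.48 against -0.02. Standard errors of the members reached 0.87 (Idi1, log2 fold change -1.28, limma adjusted p = 0.753). The smallest adjusted p was 0.624 for Tm7sf2 (log2 fold change -0.99, SE 0.42).

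**Figure D4:**
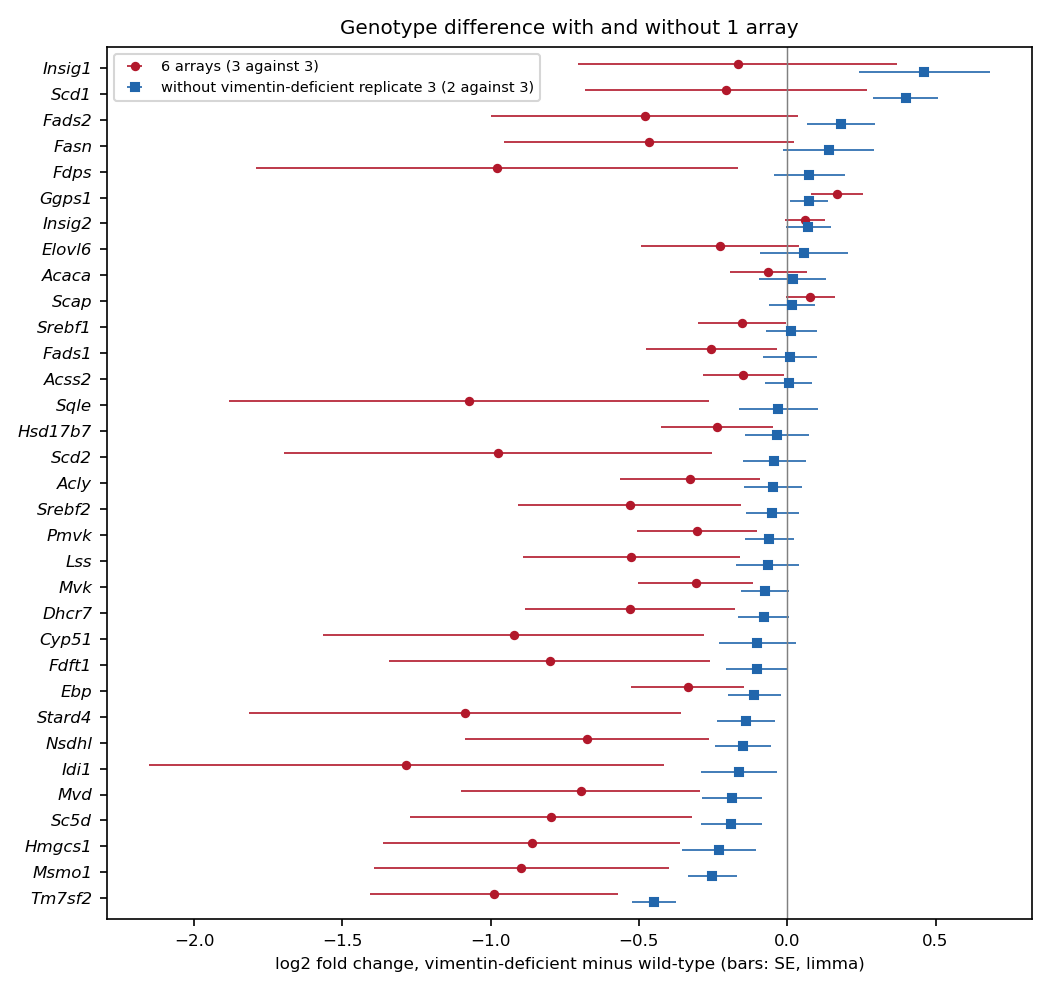
Points are limma log2 fold changes, vimentin-deficient minus wild-type, with standard errors as bars, from all 6 arrays (red circles) and without vimentin-deficient replicate 3 (blue squares). Without that array most members lie near 0, with Insig1 at 0.46, Tm7sf2 at -0.45 and Scd1 at 0.40 farther out, and standard errors are at most 0.22.

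Without vimentin-deficient replicate 3, Tm7sf2 fell and no other member passed the test. Its log2 fold change was -0.45 (SE 0.08, 1.37-fold, limma adjusted p = 0.0103), and 2 of 2 vimentin-deficient arrays read under all 3 wild-type ones, as they did for 2 of 33 members and 17.3% of tested genes. In this comparison of 2 arrays against 3, 1 of 33 members fell (3.03%) and 0 rose, where 1.03% of tested genes fell and 1.31% rose. At an unadjusted limma p under 0.05, 2 members were lower, Tm7sf2 and Msmo1, and 1 was higher, Scd1, where 7.10% of tested genes were lower and 7.11% higher. Scd1 had a log2 fold change of 0.40 (SE 0.11) and missed the threshold, with limma adjusted p = 0.0968. Msmo1 had -0.25 (SE 0.08, limma adjusted p = 0.167), and Insig1 had 0.46 with a wide error (SE 0.22, limma adjusted p = 0.388). The call of Tm7sf2 was lost without vimentin-deficient replicate 1, where limma adjusted p was 0.145, without vimentin-deficient replicate 2 (0.0879) and without wild-type replicate 3 (0.103). Over the 14 settings tried on these 5 arrays the change of Tm7sf2 ran from -0.47 to -0.41.

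Most other members had small differences in the same comparison, with Insig1 (0.46) and Scd1 (0.40) farther out. The median over all 33, Tm7sf2 included, was -0.05 against -0.01 over all tested genes. Lower means were seen for 20 of 33 (60.6%), against 55.5%. By arm, the median was -0.10 for 11 genes of the squalene and sterol arm, all 11 of them with lower means, -0.07 for 7 of the mevalonate arm and 0.02 for 9 of the fatty acid arm. Sqle had -0.03 (SE 0.13), Fdps 0.07 (SE 0.12), Hmgcs1 -0.23 (SE 0.12), Srebf2 -0.05 (SE 0.09), Srebf1 0.01 (SE 0.08) and Fasn 0.14 (SE 0.15). For the genes that did not pass, limma adjusted p lay between 0.0968 and 0.986. The number of arrays, 2 against 3, limits the precision of these values.

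The wild-type arrays also differed among themselves, and the members moved together there. Wild-type replicate 2 was the lowest of the 3 for 27 of 33 members (81.8%), against 36.4% of tested genes. The spread was modest: the highest minus the lowest wild-type value ran from 0.06 for Scap to 0.57 for Elovl6 and exceeded 0.25 for 17 members. The median SD of the wild-type arrays was 0.14 for the members and 0.07 for all tested genes. Among the vimentin-deficient arrays, replicate 1 was above replicate 2 for 28 of 33 members (84.8%), against 51.8% of tested genes. The exceptions were Insig1, Insig2, Mvd, Tm7sf2 and Ggps1. Members share arrays and are not independent of each other, so these counts carry no test.

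Other genes of these routes, listed apart from the members, showed smaller falls on replicate 3. Of 9 measured genes of sterol synthesis and SREBP processing, 0 passed the test in either direction with 6 arrays or without replicate 3, and the median on replicate 3 was -0.30 log2 units. The largest fall there was that of Tmem97, a sterol-regulated membrane protein gene, at -1.09, and the protease genes Mbtps1 and Mbtps2, which cut SREBP, were at -0.30 and 0.02. Lbr, a reductase of the nuclear envelope that carries out the same step as Tm7sf2, read 9.80, 9.38 and 9.54 in wild-type and 10.21, 9.90 and 9.19 in vimentin-deficient macrophages. Without replicate 3 its log2 fold change was 0.48 (SE 0.13, limma adjusted p = 0.0933), opposite in sign to Tm7sf2 and not past the threshold. Of 18 further fatty acid genes 0 passed, with a median on replicate 3 of -0.42 and the acyl-CoA synthetase gene Acsl3 lowest at -1.62. Me1, the malic enzyme that supplies NADPH, had 0.31 without replicate 3 (SE 0.08, limma adjusted p = 0.0635). Of 9 genes of the isoprenoid branch, most of them for prenylation, dolichol or ubiquinone, 0 passed, with a median on replicate 3 of -0.20.

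A list of 10 genes for sterol storage, efflux and other targets of the sterol-sensing receptor LXR had a higher mean on replicate 3. It covers only some targets of LXR. Over 10 genes the list mean was 10.40 to 10.53 on the wild-type arrays, 10.22 and 10.39 on vimentin-deficient replicates 1 and 2, and 10.76 on replicate 3. Mylip, a ubiquitin ligase of lipoprotein receptors, differed from the wild-type mean by 1.23 log2 units there and Cyp27a1, a sterol hydroxylase, by 0.88. The phospholipid acyltransferase gene Lpcat3 was lower, at -0.73, Ch25h was at -0.06, and the median of the 10 differences was 0.21. With 6 arrays 0 of the 10 passed, and without replicate 3 Apoe (-0.96, limma adjusted p = 0.000449) and the exporter gene Abca1 (-0.47, limma adjusted p = 0.0173) fell and Ch25h, cholesterol 25-hydroxylase, rose (0.76, limma adjusted p = 0.00184). On replicate 3 the directions of Apoe and Abca1 were opposite, at 0.36 and 0.43 above the wild-type mean.

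Proliferation genes were low on the same array as the lipid synthesis genes. Their mean over 11 genes was 10.32, 9.67 and 10.01 on wild-type replicates 1, 2 and 3 and 10.46, 10.24 and 8.08 on vimentin-deficient replicates 1, 2 and 3, and 8 of the 11 were over 1 log2 unit below the wild-type mean on replicate 3. Wild-type replicate 2, the lowest wild-type array for most members, was also the lowest for this list. On vimentin-deficient replicates 1 and 2 proliferation genes differed from the wild-type mean by 0.46 and 0.24 log2 units, all 33 members by 0.04 and -0.10, the squalene and sterol arm by -0.06 and -0.22, the mevalonate arm by -0.003 and -0.16, and the fatty acid arm by 0.20 and -0.04. The part of proliferation in the lipid synthesis values was not tested. In bulk RNA, fewer cells that express a gene and less RNA per cell cannot be told apart.

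**Figure D5:**
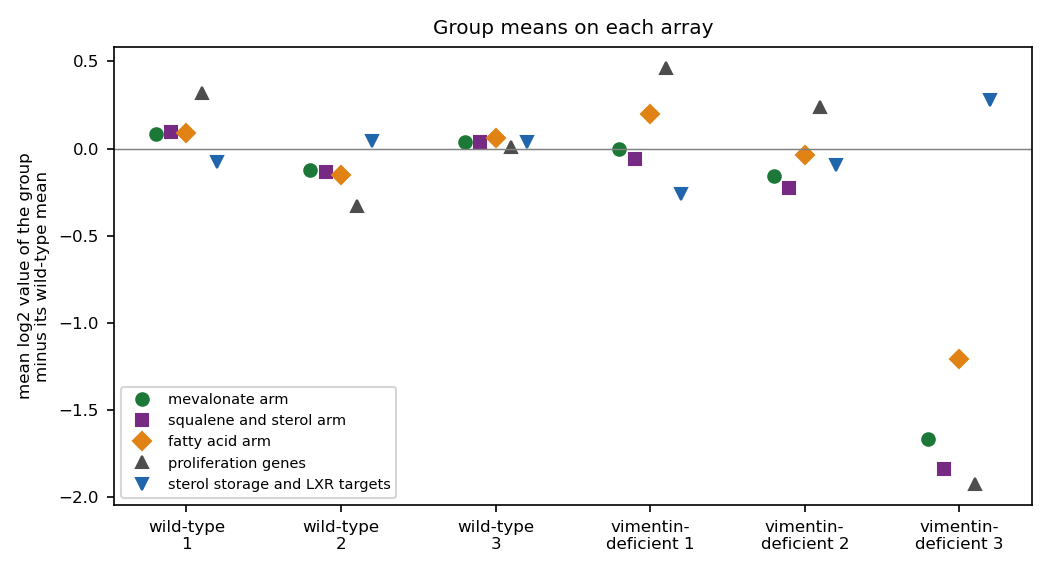
Each point is the mean log2 value of a gene group on 1 array minus the mean of that group over the 3 wild-type arrays, for 7 mevalonate arm genes, 11 squalene and sterol arm genes, 9 fatty acid arm genes, 11 proliferation genes and 10 sterol storage and LXR target genes. On vimentin-deficient replicate 3 the first 4 groups are at -1.67, -1.84, -1.21 and -1.93, and the LXR group is at 0.28.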

How the data were processed

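Per the labels' protocols, Trizol RNA was turned into biotinylated cRNA and hybridised, 1 sample per array, to Affymetrix mouse arrays. The values are log2 probe set values as the authors deposited them; their summary and normalization were not given in the sources used here. Array medians lay between 7.225 and 7.249, and no further normalization was applied. Folds of dim genes can be compressed by background.

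Of 45101 probe sets, 64 were controls; 34945 named 1 gene symbol, 932 several and 9160 none. Symbols were updated by Entrez ID through a RefSeq table (GRCm38.p6) for 34754 of them. A gene took its brightest probe set, and genes with a mean at or above the 40th percentile of non-control probe sets entered limma (version 3.58.1, R 4.3.3; lmFit, then eBayes with trend) without covariates, once with all 6 arrays and once without vimentin-deficient replicate 3. Calls used Benjamini-Hochberg adjusted p under 0.05, taken over every tested gene. The procedure was tested on simulated data. All members are named. Of other pathway lists, up to 4 genes with the smallest p were to be named. Tmem97, Mbtps1, Mbtps2, Acsl3, Mylip, Cyp27a1, Lpcat3, Fcgr1, Cd14, Itgam, Ctsk and Kit were named after their values were seen. The members and lists were chosen with earlier results of these data known. The labels do not say that same-numbered samples were paired, so the main comparison has no replicate block. Deviations of same-numbered samples correlated at 0.497, -0.194 and 0.0548 for replicates 1, 2 and 3. With 3 arrays per group these values cannot decide whether the samples were paired.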

Additional observations from a re-analysis of the deposited data

How the results depend on the processing

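With all 6 arrays, members called stayed at 0 in both directions under quantile normalization, median centring, other filters, averaged probe sets, no variance trend, array quality weights, a threshold of 0.10 and a replicate block. The replicate block (labels share numbers only, and replicate 2 of the vimentin-deficient group correlated best with wild-type replicate 1) took genes that fell from 3 to 0, as did leaving out any 1 wild-type array. Array quality weights gave 41 lower and 52 higher genes and a member median of -0.18. Leaving out 1 array gave 0 to 1 members lower, 0 to 139 genes lower, 0 to 176 higher and member medians from -0.794 to -0.0486, the last without vimentin-deficient replicate 3. On the 5 arrays without it, a threshold of 0.10 gave 1 member higher (Scd1), 261 genes lower and 304 higher. Leaving out a further array there gave 0 to 1 members lower, 0 to 1 higher, 21 to 604 genes lower and 47 to 702 higher; the highest counts came without wild-type replicate 1, where Scd1 passed (limma adjusted p = 0.0379), and the lowest without wild-type replicate 3. Where 1 vimentin-deficient array was left, it was assumed to vary like the wild-type arrays. The causes were not tested. On those 5 arrays the block moved genes lower from 139 to 101 and higher from 176 to 208 and changed no member's call. Signal over background limits Idi1 on replicate 3. Tm7sf2, at 7.03, was just above the filter value of 6.93 there. Hsd17b7, at 7.24, and Fdft1, Cyp51, Stard4 and Sqle, at 7.34 to 7.39, were also dim on that array. So were Mvd, Acss2, Fads2 and Pmvk, at 7.40 to 7.49. The folds of all these genes may be compressed.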
